A study of Homo sapiens with 9 samples.

Results

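Of the 60656 genes counted in RIVA lymphoma cells carrying BCL10 mutants, 8 long non-coding RNA genes are described here. They were taken by gene name, from a list drawn up with earlier results of these data known. MIR155HG, MIR17HG, MIR3142HG, MIR22HG, MIR181A1HG and DLEU2 are hosts of microRNAs, and NEAT1 and MALAT1 are nuclear architectural RNAs. Each had 1 row in the table of counts and the type lncRNA. RIVA is an established human lymphoma line of the ABC-DLBCL type (diffuse large B-cell lymphoma resembling activated B cells), infected with an empty pLVX-TetOne lentivirus (vector, labelled BCL10 wild type) or with the same construct carrying the truncation S136X or the missense change R58Q of BCL10. All 9 libraries, 3 per group, came from cells given doxycycline for 24 h, at 200 ng/mL in the treatment protocol and in ng/µL in another label field. The construct is switched on by doxycycline, infected cells were selected with puromycin, and the cells' own BCL10 is still present in every group, so the comparisons are of added mutant protein in 1 line. No library with added wild-type BCL10 was analysed here.

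A microRNA host gene is transcribed as a long primary RNA that holds hairpins in an exon or an intron. The nuclear enzyme DROSHA with its partner DGCR8 cuts the hairpins out, and DICER1 trims them to mature microRNAs of about the length of a short oligonucleotide. The level of a host RNA therefore reports the primary transcript, while the mature microRNA is a separate molecule. BCL10 carries B-cell receptor signals to NF-kB, and MIR155HG (also called BIC) and the gene of miR-146a are widely used as examples of host genes that respond to NF-kB. NEAT1 is the scaffold of paraspeckles and MALAT1 is retained in nuclear speckles, where splicing factors gather.

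The mature microRNAs whose hosts could be tested are printed because the hosts differ in which messenger RNAs their products can bind. The sequences are those of RefSeq on GRCh38.p14, 5′ to 3′, with the seed (bases 2 to 8, the part that pairs with a target) in capitals.
hsa-miR-155-5p: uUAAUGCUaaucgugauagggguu
hsa-miR-17-5p: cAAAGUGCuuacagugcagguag
hsa-miR-20a-5p: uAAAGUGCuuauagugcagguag
hsa-miR-18a-5p: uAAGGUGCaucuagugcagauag
hsa-miR-19a-3p: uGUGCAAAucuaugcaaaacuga
hsa-miR-19b-3p: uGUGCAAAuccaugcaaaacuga
hsa-miR-92a-3p: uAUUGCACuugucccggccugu
hsa-miR-146a-5p: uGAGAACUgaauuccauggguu
hsa-miR-3142: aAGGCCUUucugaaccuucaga
hsa-miR-22-3p: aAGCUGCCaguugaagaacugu
hsa-miR-15a-5p: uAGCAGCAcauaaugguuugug
hsa-miR-16-5p: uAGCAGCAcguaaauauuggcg

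MIR155HG and MIR22HG each hold 1 microRNA in this set, and MIR3142HG holds 2, miR-146a and miR-3142, with different seeds. The 6 microRNAs of MIR17HG, known as the miR-17-92 cluster, fall into 4 seeds, with miR-17 and miR-20a sharing AAAGUGC and miR-19a and miR-19b sharing GUGCAAA. The miR-15a and miR-16 hairpins inside DLEU2 share the seed AGCAGCA. In GENCODE release 29, miR-155 lies in an exon of the single MIR155HG transcript, miR-22 in an exon of all 19 MIR22HG transcripts and miR-146a in an exon of both MIR3142HG transcripts, while miR-3142 is intronic in both. The miR-17-92 hairpins are exonic in 2 of the 3 MIR17HG transcripts. The miR-15a and miR-16 hairpins are intronic in the 6 DLEU2 transcripts that span them, so spliced DLEU2 RNA does not contain them.

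The table also has a row of its own for each of 14 listed hairpins of these 6 hosts, and 12 of them had 0 counts in all 9 libraries. The exceptions on the list were MIR3142, with 1 count in vector replicate 1, and MIR16-1, with 2 counts in S136X replicate 3. MIR3613, a hairpin inside DLEU2 on its strand that was not listed, had 0 to 4 counts per library. A count of 0 allows up to 3 counts, which was between 0.0883 and 0.105 CPM (counts relative to library size) in these libraries, counting error only. Several hairpins lie in an exon of their host, and how reads there were assigned is not given. For these hairpins the bound is not a detection limit. All values below are therefore of host transcripts, and no mature microRNA was measured.

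Total counts per library ranged from 28047713 to 33122267. BCL10 had 885 to 1268 counts in the vector libraries, 9838 to 14293 with S136X and 10117 to 10596 with R58Q, which separates mutant from vector libraries but cannot tell the mutants from each other. All 8 B-cell markers were present, at a summed 3534 to 4382 CPM in every library, beside 36.65 to 59.43 CPM for 8 markers of other cell types, most of it EPCAM. Of the B-cell markers, IRF4 rose with S136X and R58Q (log2 0.67 and 0.76, edgeR adjusted p = 0.00153 and 0.00157), and 6 of 8 had log2 differences below 0 from vector that were not called. Mitochondrial RNAs took 6.022% to 8.446% of counts in vector, 6.404% to 7.135% in S136X and 5.118% to 6.278% in R58Q libraries. Replicate 1 of each group stood apart on the second principal component of log2 CPM, at 12.2 to 34.3 against -25 to -5.26 for the other 6 libraries. The deposited column names carry a later date for all R58Q libraries than for the rest, so date and R58Q cannot be told apart in any comparison with R58Q. Both comparisons with vector use the same 3 vector libraries.

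MIR155HG, at chr21:25561909-25575168 on GRCh38, is the primary transcript of miR-155, a microRNA of activated B cells that is known for high levels in this lymphoma subtype. It was the member with the largest fold change in each of the 3 comparisons. Its level was 9.14, 12.1 and 12.5 CPM in vector replicates 1 to 3, 29.04, 30.5 and 29.6 CPM with S136X and 59.2, 51.1 and 71.5 CPM with R58Q. No library of any group overlapped another group: every S136X library lay above every vector library, and every R58Q library above every S136X library. The S136X replicates were the closest to each other of any member in any group, at 29.7 ± 0.725 CPM (SD, n = 3), a coefficient of variation of 2.44%.

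MIR155HG rose 2.64-fold with S136X, a log2 fold change of 1.40 with a standard error of 0.121 and an adjusted p of 0.00042 (edgeR quasi-likelihood test, Benjamini-Hochberg). With R58Q it rose 5.39-fold, a log2 fold change of 2.43 (standard error 0.155, 95% interval 2.08 to 2.78, adjusted p = 5.75e-05 by the same test). Both changes passed the threshold in all 19 alternative analyses, with log2 fold changes of 1.28 to 1.5 for S136X and 2.30 to 2.54 for R58Q. The difference between the mutants was itself tested: MIR155HG was 2.03-fold higher with R58Q than with S136X (log2 1.02, standard error 0.119, edgeR adjusted p = 0.0154). This call was lost when S136X replicate 1, 2 or 3 was left out (edgeR adjusted p = 0.0525, 0.0726 and 0.144), while the fold change hardly moved (log2 1.01, 1.04 and 1.02). Over its 19 alternatives the adjusted p ranged from 5.88e-12 to 0.144 and the log2 fold change from 0.88 to 1.13.

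**Figure D1:**
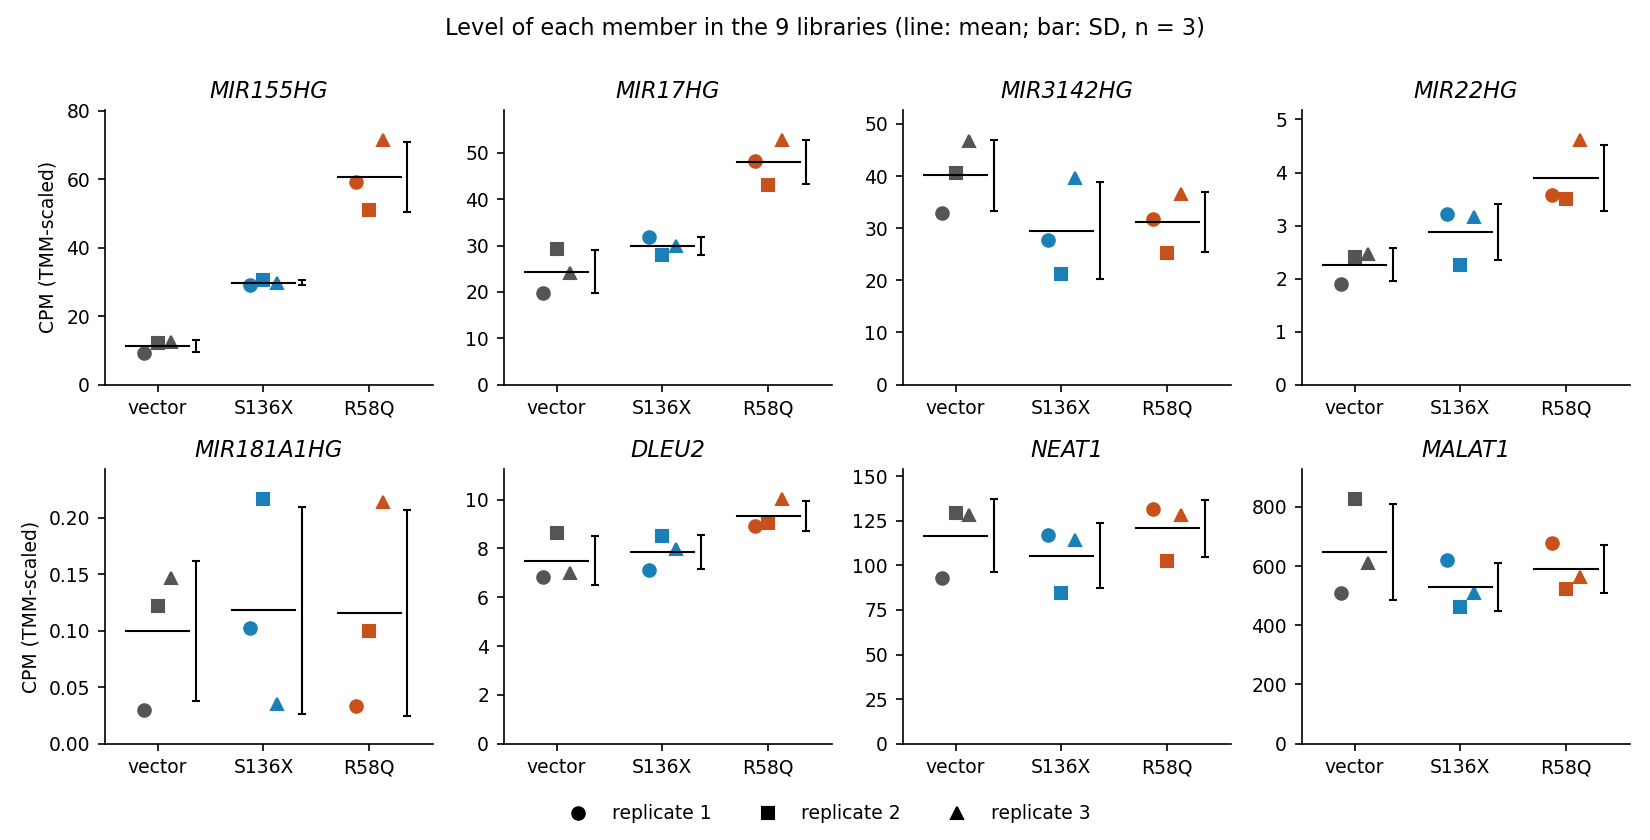
Level of each of the 8 genes in TMM-scaled CPM (linear axes from 0, a scale of its own for each gene) in the 3 vector, 3 S136X and 3 R58Q libraries; symbols mark the replicate number, lines the mean and bars the SD (n = 3). MIR155HG climbs from 9.14 to 12.5 CPM in vector to 51.1 to 71.5 CPM in R58Q libraries without overlap, while NEAT1 and MALAT1 overlap in all groups.

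MIR17HG, at chr13:91347820-91354579, is the primary transcript of the miR-17-92 cluster, a target of MYC that is known to drive lymphoma in mice. It was at 19.9, 29.3 and 24.05 CPM in vector, 31.9, 28 and 30 CPM in S136X and 48.3, 43.2 and 52.8 CPM in R58Q libraries. The R58Q libraries lay above all others, and vector replicate 2 fell within the S136X range. MIR17HG rose 1.97-fold with R58Q (log2 0.98, standard error 0.138, edgeR quasi-likelihood adjusted p = 0.0028) and was called in all 19 alternatives at 0.86 to 1.13. With S136X the log2 difference from vector was 0.30, with a 95% interval of -0.01 to 0.60 and an edgeR adjusted p of 0.195.

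Between the mutants, MIR17HG was 1.59-fold higher with R58Q (log2 0.67, standard error 0.0913, edgeR adjusted p = 0.0277). The call was lost without R58Q replicate 1 or 3 (adjusted p = 0.0837 and 0.102 by edgeR) and without S136X replicate 1, 2 or 3 (0.0602, 0.103 and 0.165). The log2 fold change stayed between 0.60 and 0.74, and the adjusted p between 1.01e-07 and 0.165, over the 19 alternatives. MIR155HG and MIR17HG were also set side by side within each library, where no scaling between libraries enters. There were 0.412 to 0.519 MIR155HG counts per MIR17HG count in vector, 0.909 to 1.09 in S136X and 1.18 to 1.36 in R58Q libraries, with no overlap.

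MIR3142HG, at chr5:160438594-160487426, is the host of miR-146a, a microRNA known to target IRAK1 and TRAF6 upstream of NF-kB, and of miR-3142. Its level was 33, 40.7 and 46.7 CPM in vector, 27.7, 21.2 and 39.7 CPM in S136X and 31.8, 25.2 and 36.5 CPM in R58Q libraries. The groups overlapped, and replicate 3 was the highest of each group. The log2 difference from vector was -0.44 with S136X (95% interval -0.92 to 0.04, edgeR adjusted p = 0.218) and -0.37 with R58Q (-0.73 to -0.01, adjusted p = 0.133). Neither passed the test, and both intervals leave out a rise of 1.5-fold. With the replicate number as a block, the adjusted p was 0.0191 and 0.0225 at -0.47 and -0.37 on the log2 scale, still under 1.5-fold.

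MIR155HG and MIR3142HG are both known as NF-kB-responsive hosts, and the ratio of their counts differed between the groups. There were 0.267 to 0.297 MIR155HG counts for each MIR3142HG count in the vector libraries, 0.745 to 1.44 in the S136X libraries and 1.87 to 2.03 in the R58Q libraries. The ratio is taken within a library and does not depend on library size, and the 3 groups did not overlap. Between R58Q and S136X, MIR3142HG differed by 0.07 on the log2 scale (95% interval -0.46 to 0.60, edgeR adjusted p = 0.967).

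**Figure D2:**
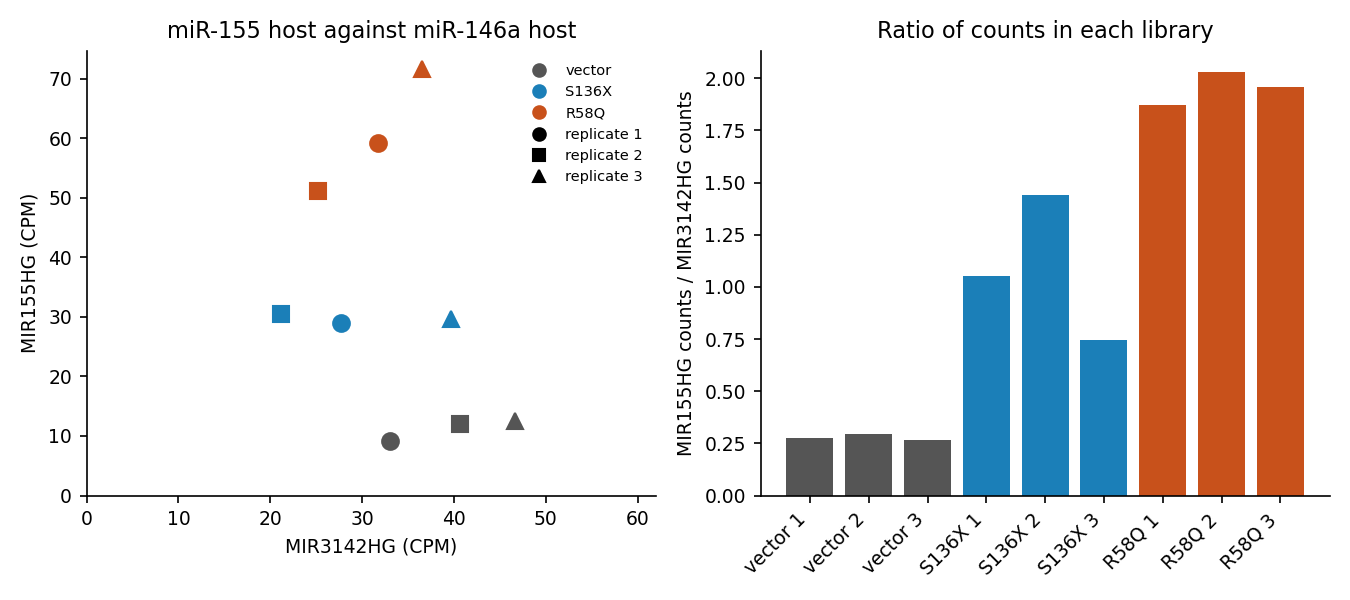
Left, MIR155HG against MIR3142HG, both in TMM-scaled CPM, 1 point per library, with colour for the group and shape for the replicate. Right, MIR155HG counts divided by MIR3142HG counts in each library: 0.267 to 0.297 in vector, 0.745 to 1.44 in S136X and 1.87 to 2.03 in R58Q libraries.

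The windows around the start of both genes, 250 bases before to 50 after in RefSeq on GRCh38.p14, are printed because these hosts share a known regulator, while MIR155HG was called and MIR3142HG was not. Capitals mark the letters of a searched motif. The MIR155HG window is chr21:25561895-25562194 (+ strand) and the MIR3142HG window chr5:160468001-160468300 (+ strand), both at a start inside the gene's span in the table of counts.
MIR155HG: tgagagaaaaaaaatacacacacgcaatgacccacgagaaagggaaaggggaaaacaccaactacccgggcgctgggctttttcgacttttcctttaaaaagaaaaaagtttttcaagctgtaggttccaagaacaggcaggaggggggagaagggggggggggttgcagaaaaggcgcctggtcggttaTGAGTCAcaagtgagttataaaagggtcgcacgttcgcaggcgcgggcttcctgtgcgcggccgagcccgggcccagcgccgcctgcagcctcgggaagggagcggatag
MIR3142HG: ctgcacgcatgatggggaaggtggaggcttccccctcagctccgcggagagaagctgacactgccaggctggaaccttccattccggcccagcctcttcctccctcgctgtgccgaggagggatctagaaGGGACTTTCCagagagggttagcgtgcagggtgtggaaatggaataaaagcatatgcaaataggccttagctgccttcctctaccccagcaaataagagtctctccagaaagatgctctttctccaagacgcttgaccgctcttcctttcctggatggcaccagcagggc

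The search covered both strands for the NF-kB consensus (10 bases), the AP-1 site TGANTCA and the E-box CACGTG. The MIR155HG window held the AP-1 letters TGAGTCA starting 60 bases before the transcription start and no NF-kB consensus. The MIR3142HG window held the NF-kB letters GGGACTTTCC starting 120 bases before it and no AP-1 site. Of 35116 RefSeq promoter windows of the same length, 11.3% held the NF-kB consensus, 7.71% the AP-1 site and 7.26% the E-box. RefSeq windows were found for 7 of the 8 genes, 9 windows in all. MIR17HG, MIR22HG and the MALAT1 windows held none of the 3 motifs, MIR181A1HG held TGACTCA 48 bases before its start, and the DLEU2 window at chr13:50125492-50125791 held an E-box 230 bases before its start and an overlapping pair of NF-kB matches beginning at bases 35 and 36 counted from it. A match describes the letters of a window and not binding, which was not measured.

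MIR22HG, at chr17:1711493-1717174, is the host of miR-22, a microRNA with reported roles in blood cell renewal. It was scarce, with 64 to 84 counts in vector, 73 to 94 in S136X and 105 to 151 in R58Q libraries. In CPM these were 1.90, 2.41 and 2.47 for vector, 3.21, 2.26 and 3.16 for S136X, and 3.57, 3.51 and 4.62 for R58Q. The R58Q libraries lay above all others, and vector and S136X overlapped.

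MIR22HG rose 1.72-fold with R58Q (log2 0.78, standard error 0.188, edgeR quasi-likelihood adjusted p = 0.022). The call was lost without R58Q replicate 3 (edgeR adjusted p = 0.0796) and without vector replicate 1, 2 or 3 (0.0512, 0.0652 and 0.0514), with adjusted p from 0.0054 to 0.0796 and log2 fold changes from 0.65 to 0.86 over the 19 alternatives. With S136X the log2 difference was 0.34 (95% interval -0.13 to 0.82, edgeR adjusted p = 0.331), and between the mutants it was 0.43 (-0.03 to 0.90, adjusted p = 0.487). MIR22HG overlaps 652 bases of WDR81, which lies on the opposite strand with 1332 to 1817 counts per library. The strand setting of the counting is not given in the sources used here, so reads of the 2 genes in that stretch cannot be told apart. WDR81 was not called, with log2 differences from vector of -0.11 and -0.14.

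DLEU2, at chr13:49956670-50125720, holds miR-15a and miR-16-1, which are known to restrain BCL2 and are deleted in many chronic lymphocytic leukaemias. Its level was 6.83, 8.65 and 7.01 CPM in vector, 7.11, 8.49 and 7.96 CPM in S136X and 8.93, 9.02 and 10.03 CPM in R58Q libraries. All R58Q libraries were above all others, but by little. The log2 difference from vector was 0.31 with R58Q (95% interval 0.02 to 0.61, edgeR adjusted p = 0.122) and 0.07 with S136X (-0.25 to 0.39, adjusted p = 0.793). Between the mutants it was 0.24 (-0.04 to 0.52, edgeR adjusted p = 0.544). TRIM13 and DLEU1 overlap DLEU2 on the opposite strand, with 257 to 330 and 48 to 62 counts, and the limit on strand holds here too.

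Both MIR17HG and DLEU2 lie on chromosome 13, and their ratio was taken within each library. There were 2.91 to 3.43 MIR17HG counts per DLEU2 count in vector, 3.30 to 4.50 in S136X and 4.79 to 5.40 in R58Q libraries. Vector and S136X overlapped, and R58Q was above both.

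MIR181A1HG, at chr1:198777861-198937471, is a host of miR-181a and miR-181b, which act in lymphocyte development. It had 1, 4 and 5 counts in vector, 3, 7 and 1 in S136X and 1, 3 and 7 in R58Q libraries. These counts are too few for the filter, so it was not tested in any comparison, and a difference was not detectable at this depth. Libraries at 3 counts or fewer are at the limit that a count of 0 allows.

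NEAT1, at chr11:65422774-65445540, was at 92.9, 129 and 128 CPM in vector, 117, 84.6 and 114.5 CPM in S136X and 131, 103 and 128.5 CPM in R58Q libraries. The groups overlapped in every comparison. The log2 difference from vector was -0.15 with S136X (95% interval -0.49 to 0.20, edgeR adjusted p = 0.586) and 0.05 with R58Q (-0.27 to 0.37, adjusted p = 0.838). The sign of the R58Q difference turned under upper-quartile scaling (-0.02), total counts (-0.01) and when vector replicate 1 was left out (-0.08). Between the mutants the log2 difference was 0.19 (-0.14 to 0.51, edgeR adjusted p = 0.739). With same-numbered libraries as pairs, the R58Q library was the higher in 3 of 3 pairs and the adjusted p was 0.00506 at the same log2 difference, under 1.5-fold.

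MALAT1, at chr11:65497688-65506516, was at 509.7, 827 and 609 CPM in vector, 619.6, 461 and 509.7 CPM in S136X and 679, 523 and 564 CPM in R58Q libraries. Vector replicate 2 was the highest library and also had the highest mitochondrial share, 8.446% of counts, whose part in the MALAT1 level was not tested. The log2 difference from vector was -0.29 with S136X (95% interval -0.68 to 0.10, edgeR adjusted p = 0.318) and -0.14 with R58Q (-0.53 to 0.25, adjusted p = 0.591). Without vector replicate 2 the R58Q difference was 0.08. Without replicate 1 in both groups the S136X difference was -0.55 (edgeR adjusted p = 0.0262), short of 1.5-fold, against a range of adjusted p from 0.0262 to 0.819 over its 19 alternatives. Between the mutants the log2 difference was 0.14 (-0.15 to 0.43, edgeR adjusted p = 0.799). With the replicate block it was again 0.14, with R58Q the higher in 3 of 3 pairs and an adjusted p of 0.0196, under 1.5-fold.

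MALAT1 and the long NEAT1 isoform end in a triple helix instead of a poly(A) tail, and the libraries were made from poly(A)-selected RNA, so their counts need not follow the total amount of these RNAs. NEAT1 and MALAT1 are neighbours on chromosome 11 and together made up 79.8% to 91.1% of the counts of the 8 genes. There were 0.156 to 0.228 NEAT1 counts per MALAT1 count, with vector at 0.156 to 0.210, S136X at 0.183 to 0.225 and R58Q at 0.193 to 0.228. The ranges overlapped.

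Counted per gene, MIR155HG was the only member called in S136X against vector, 1 of the 7 tested, beside 3.87% of all 15530 genes tested. In R58Q against vector MIR155HG, MIR17HG and MIR22HG were called, 3 of 7, beside 7.63% of 15435 genes, and in R58Q against S136X MIR155HG and MIR17HG, 2 of 7, beside 0.434% of 15195 genes. All called members were higher, and 0 were lower in edgeR, where 2.05%, 4.09% and 0.27% of all genes tested were called higher in these 3 comparisons. At an unadjusted p under 0.05 in edgeR, MIR3142HG was the only member lower, and only in R58Q against vector (1 of 7), and DESeq2 and limma-voom called 0 members lower. The groups did not overlap for 1, 4 and 4 of the 7 members, beside 31.3%, 40.3% and 17% of all genes tested. The median log2 fold change of the 7 members was 0.07, 0.31 and 0.24, beside -0.02, -0.03 and 0 over all genes. Among lncRNA genes alone, 3.86%, 8.37% and 0.398% were called. Without replicate 1 in both groups, a setting chosen after seeing that these libraries stood apart, the counts of members called were 1, 3 and 0, since the edgeR adjusted p of R58Q against S136X was 0.064 for MIR155HG (log2 1.02) and 0.074 for MIR17HG (log2 0.72). With this few members these counts describe the 8 genes and say nothing of hosts in general.

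**Figure D3:**
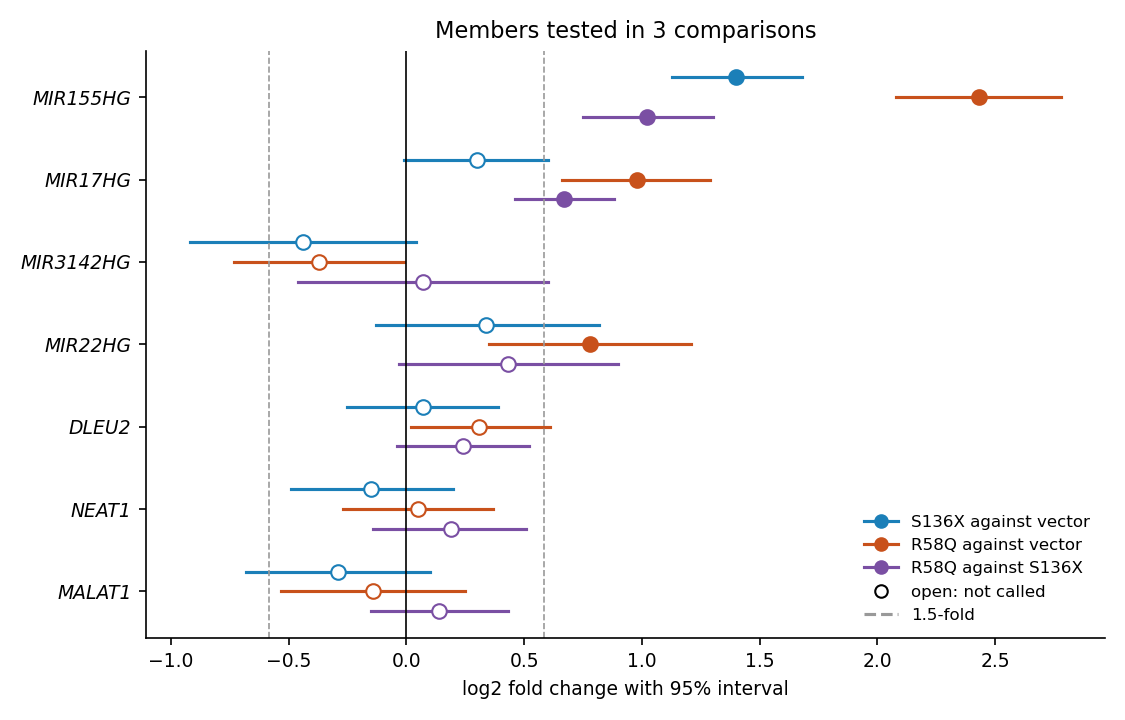
Log2 fold change (dot) with its 95% interval (line) for the 7 members tested in 3 comparisons, by the edgeR fit; filled dots were called (adjusted p under 0.05 and at least 1.5-fold, dashed lines), open dots were not. The 6 filled dots belong to MIR155HG, MIR17HG and MIR22HG, and all lie to the right of 0.

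Levels of different genes were compared per kilobase of exon, with lengths from GENCODE release 29. In vector libraries the order was MALAT1 at 73.5 ± 18.4 CPM per kb (SD, n = 3), MIR3142HG at 16.9 ± 2.88, MIR155HG at 7.02 ± 1.14, MIR17HG at 6.99 ± 1.36, NEAT1 at 5.13 ± 0.906, DLEU2 at 1.47 ± 0.197, MIR22HG at 0.757 ± 0.106 and MIR181A1HG at 0.0307 ± 0.019. MIR155HG and MIR17HG were within each other's spread between replicates, while every NEAT1 library (4.08 to 5.67 CPM per kb) lay just below every library of both (from 5.71 and 5.69). The NEAT1 length used, 22767 bases, takes in the long isoform, which has no poly(A) tail. The place of NEAT1 in this order therefore depends on the length chosen. With S136X, MIR155HG reached 18.6 ± 0.455 CPM per kb, above MIR3142HG at 12.4 ± 3.94. With R58Q, MIR155HG was at 37.9 ± 6.43 CPM per kb and MIR17HG at 13.8 ± 1.38, which did not differ from MIR3142HG (13.1 ± 2.40) beyond the spread. MIR155HG was thus next to MALAT1 (66.7 ± 9.18 CPM per kb) in the R58Q libraries. The annotation used for counting is not given, so these lengths are approximate, and for DLEU2 and MIR181A1HG the table's span is longer than that of release 29.

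**Figure D4:**
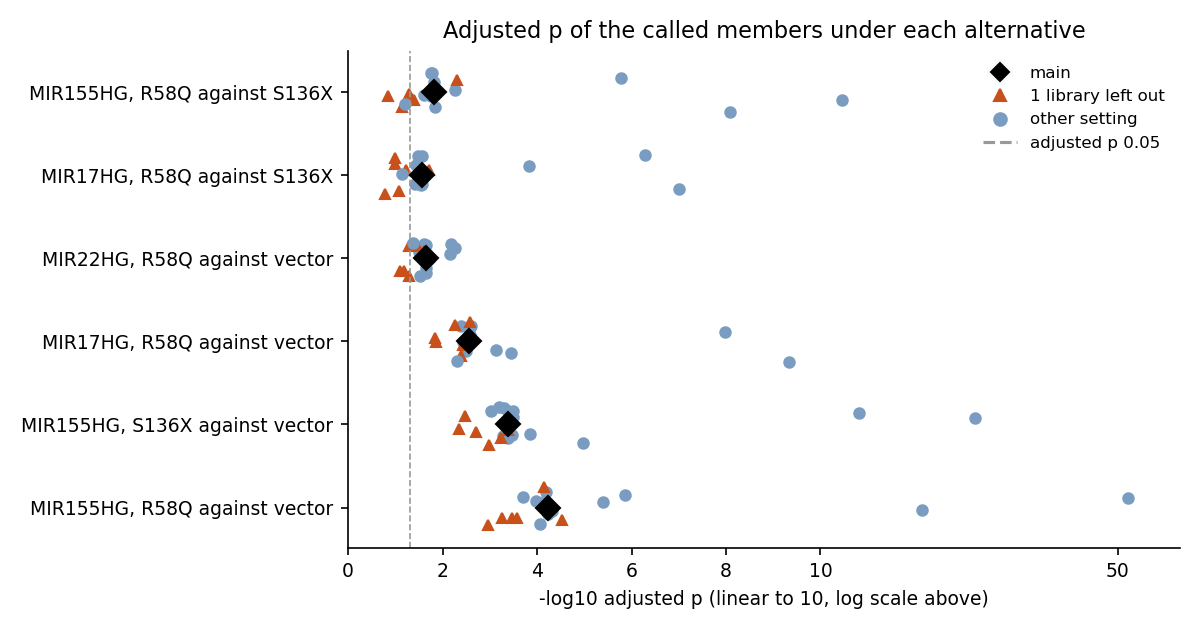
Negative log10 of the adjusted p (linear up to 10, logarithmic above) of the 6 member calls in the main fit (diamonds), with 1 library left out (triangles) and under the other settings (circles). All points of MIR155HG against vector and of MIR17HG with R58Q against vector lie right of the dashed line at 0.05, while points on both sides of it belong to MIR22HG with R58Q and to both calls of R58Q against S136X.

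Genes of the machinery that makes and uses microRNAs gave no calls. Of 14 genes for processing, export and silencing (DROSHA, DICER1, the Argonautes and partners), 0 were called by edgeR in any comparison, with log2 fold changes of -0.47 to 0.32 in R58Q against vector. Of these, 3 in S136X and 7 in R58Q against vector had an adjusted p under 0.05 without reaching 1.5-fold, beside 10.1% and 21% of all genes tested with such a p at any fold. The 3 were 1 higher and 2 lower, and the 7 were 2 higher and 5 lower. Of 23 protein-coding genes tested that hold a microRNA in an intron, 0 were called, with 1 and 3 under an adjusted p of 0.05 in the comparisons with vector.

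Other lncRNA hosts of microRNAs went either way. Of 40 listed, 10 were tested. MIR600HG fell in both mutants, from 28.3, 32.3 and 30.6 CPM in vector to 16.5, 24.3 and 18.4 CPM with S136X and 17, 23.1 and 16.2 CPM with R58Q, log2 fold changes of -0.62 and -0.70 (edgeR adjusted p = 0.025 and 0.0102). MIR29B2CHG, the host of miR-29b-2 and miR-29c, was named after its values were seen. It rose with R58Q, from 6.23, 10 and 9.27 CPM in vector to 18.2, 15.3 and 21.7 CPM (log2 1.11, edgeR adjusted p = 0.00656), and was at 11.4, 9.89 and 14.8 CPM with S136X (log2 0.50, adjusted p = 0.162). The other 8 tested hosts were not called in either comparison with vector. Of all genes tested, 3.87% (S136X) and 7.63% (R58Q) were called. The median of the 10 was -0.27 for S136X and -0.21 for R58Q.

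Partners of the 2 nuclear RNAs were also measured. Of 15 paraspeckle proteins (such as NONO and SFPQ) and 14 nuclear speckle proteins (such as SRSF1 and SRRM2), 0 were called in any comparison, and their log2 fold changes stayed between -0.54 and 0.25. At an adjusted p under 0.05 there were 1 and 1 paraspeckle and 0 and 2 speckle proteins in S136X and R58Q against vector. Such a p at any fold was found for 10.1% and 21% of all genes tested. Of 10 other nuclear lncRNAs tested, LINC-PINT, named after its values were seen, rose with R58Q (log2 0.62, edgeR adjusted p = 0.03). In S136X against vector 0 were called, and 1 had an adjusted p under 0.05. Among all genes tested, 7.63% were called with R58Q and 3.87% with S136X.

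Among 17 tested genes known as targets of these microRNAs, 1 was called in each comparison with vector, beside 3.87% and 7.63% of all genes. SOCS1, an inhibitor of cytokine signalling and a known target of miR-155, was at 1.81, 1.68 and 2 CPM in vector, 2.84, 4.71 and 3.19 CPM in S136X and 7.25, 8.92 and 9.05 CPM in R58Q libraries. It rose with both mutants, by 0.97 and 2.19 on the log2 scale (edgeR adjusted p = 0.0307 and 0.000109). SOCS1 thus moved in the same direction as MIR155HG, the host of the microRNA that targets it. The other 16 had log2 fold changes of -0.49 to 0.46 with S136X and -0.41 to 0.51 with R58Q. Those of them past the adjusted p are named after their values were seen, and all were under 1.5-fold. BCL2, a target of miR-15a and miR-16, differed by log2 0.43 and 0.51 (edgeR adjusted p = 0.00675 and 0.00569). BCL2L11 (BIM), a target of miR-17-92, differed by -0.49 and -0.41 (edgeR adjusted p = 0.0065 and 0.00326). IRAK1, a target of miR-146a, differed by 0.25 and 0.33 (edgeR adjusted p = 0.042 and 0.0163). In all, 4 of the 17 targets had an adjusted p under 0.05 in each comparison with vector. Of all genes tested, 10.1% (S136X) and 21% (R58Q) had such a p at any fold.

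The 200 kb around each member held 51 genes tested in at least 1 comparison, with NEAT1 and MALAT1 counted as neighbours of each other. Of these, 3 were called in S136X against vector, 5 in R58Q against vector and 0 in R58Q against S136X by edgeR. The 5 include JAM2 and GPC5, which passed the filter only through the R58Q libraries, so their calls cannot be set against a share of all genes. Over all genes tested, 3.87%, 7.63% and 0.434% were called in these comparisons. Those near MIR155HG were higher. LINC00158, an lncRNA 130.2 kb away, rose with both mutants, from 2.29 to 3.26 CPM in vector to 4.99 to 7.16 and 8.84 to 10.7 CPM (log2 1.09 and 1.77, edgeR adjusted p = 0.0126 and 0.000411). MRPL39, a mitochondrial ribosomal protein gene 10.5 kb away, rose with R58Q (log2 0.70, edgeR adjusted p = 0.00267) and was at 0.47 with S136X. JAM2, a junction protein gene 64.1 kb away with 4 to 27 counts per library, was called with R58Q (log2 1.71, edgeR adjusted p = 0.0408). It passed the filter in that comparison only through the R58Q libraries (17 to 27 counts, against 4, 14 and 4 in vector). The other 2 genes in that window were not called. The JAM2 call is therefore a description only. Of the 5 genes, LINC00158 and MRPL39 were called higher with R58Q apart from JAM2, and LINC00158 with S136X. Of all genes tested, 4.09% and 2.05% were called higher in these comparisons.

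Around MIR17HG the only tested gene was GPC5, with 0 to 5 counts in vector, 1 to 5 in S136X and 16 to 18 in R58Q libraries (edgeR adjusted p = 0.0118 for R58Q against vector). GPC5 passed the filter only through the R58Q libraries, where it is high, so this call is a description only. It was not tested in S136X against vector. Near MIR22HG, SERPINF1, 44.9 kb away, fell with both mutants (log2 -0.63 and -0.61, edgeR adjusted p = 0.0396 and 0.0247). FAM89B, 65.8 kb from MALAT1 and 126.8 kb from NEAT1, had 25 to 59 counts per library. It fell with S136X (log2 -0.83, edgeR adjusted p = 0.0393) and was not called with R58Q (log2 -0.29, edgeR adjusted p = 0.418). No gene near MIR3142HG, DLEU2 or MIR181A1HG was called in any of the 3 comparisons.

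The genes whose log2 CPM followed each member most closely were found over the 9 libraries among 15860 genes. For MIR155HG they were TSPAN33 (a B-cell activation marker), LTA (lymphotoxin alpha) and CD80 (a costimulatory ligand), with Pearson r of 0.996, 0.995 and 0.994. CD80 was at 3.12 to 6.03 CPM in vector, 18.7 to 22.9 in S136X and 41.9 to 56.7 in R58Q libraries, the same order without overlap as MIR155HG. An r above 0.9 with MIR155HG was found for 554 genes, beside 132 for MIR17HG, 58 for MIR22HG, 44 for MIR3142HG, 16 for NEAT1, 12 for DLEU2 and 4 for MALAT1. The 9 points share their groups, dates and replicate numbers, so a difference between groups alone gives a high r, and these values are a description.

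MIR17HG was closest to MINDY3, FEM1C and RAB3GAP2 (r 0.98, 0.978 and 0.978), and MIR22HG to TMEM106A, GDAP2 and TC2N (0.971, 0.967 and 0.967). MIR3142HG was closest to MZF1, RAB3B and RBM12B (0.961, 0.959 and 0.955). DLEU2 was closest to BLZF1, SAR1A and CEP135 (0.986, 0.963 and 0.942). NEAT1 followed SLFN12, AC000123.3 and PLAC8L1 (0.978, 0.955 and 0.932), and MALAT1 followed VPS13A, ZNF436 and CD46 (0.932, 0.912 and 0.91).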

How the data were processed

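RNA from 9 cultures of RIVA cells was sequenced by the authors in poly(A)-selected libraries over 2 runs whose reads were combined. The authors deposited 1 table of read counts per gene and, beside them, the same values as a normalized signal, which was not used for tests. The submitters' processing notes name cutadapt, STAR, Picard and hg38. The counting program, annotation and strand setting are not given in the sources used here. Nothing in the labels says that replicates were separate infections, so p-values measure the spread between these libraries.

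Tests were run on the counts with edgeR 4.0.16 in R 4.3.3 (filterByExpr with a minimum count of 10 and a minimum total of 15, TMM factors, quasi-likelihood F test, Benjamini-Hochberg adjustment over all genes tested), each pair of groups in a fit of its 6 libraries. To be called, a gene had to reach 1.5-fold with an adjusted p under 0.05. Levels were expressed as CPM with TMM factors over the 9 libraries. Total counts were 28047713 to 33122267. The procedure was tested on simulated data. Replicate pairs differed by 7.91 to 25.6 times the chi-square of sampling noise per degree of freedom, so each library counts as 1 sample. Same-numbered libraries tended to deviate together (9 correlations of 0.143 to 0.626, median 0.425). The 18 correlations for different numbers were -0.459 to 0.169, median -0.251, so the ranges overlapped at their ends. Deviations were taken from each group's mean, which by itself pulls the values for different numbers down. The numbers entered as pairs only in the replicate block, which is an alternative. The main fits were unpaired, so their p-values leave this pairing out.

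The members and gene lists were chosen with earlier results of these data known. Besides the members, the text names their hairpins, list genes called in the same direction in both mutants, called neighbours within 200 kb and the 3 closest genes by correlation. Alternatives were DESeq2 1.42.0, limma-voom (limma 3.58.1), other scalings and filters, all 9 libraries in 1 fit, the replicate block, other thresholds and each library left out. Sequences are from RefSeq on GRCh38.p14.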

Additional observations from a re-analysis of the deposited data

Results flagged for a closer look

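The effect of the mutants differed between S136X and R58Q for 2 of the 7 genes tested directly (edgeR quasi-likelihood, Benjamini-Hochberg), beside 0.434% of 15195 genes. MIR155HG was higher with R58Q than with S136X by 1.02 on the log2 scale (adjusted p = 0.0154), and all 3 R58Q libraries lay above all 3 S136X libraries. MIR17HG was higher by 0.67 (adjusted p = 0.0277), again in 3 of 3 libraries. With 1 library left out, the call was lost in 3 of 6 fits for MIR155HG and 5 of 6 for MIR17HG, and both were lost without replicate 1 in both groups. The R58Q libraries carry a later date in the deposited column names, and the date and the mutant cannot be told apart.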

How the results depend on the processing

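The 7 members tested were examined under 19 alternatives in each of 3 comparisons. The setting without replicate 1 in both groups was chosen after seeing the data. Of the 399 log2 fold changes obtained, 373 kept their direction and their side of the threshold, 17 lost a call and 9 turned direction. The settings that change only the threshold (adjusted p alone, and 0.01) reuse the main fit. Their fold changes are therefore the same by construction, and adjusted p alone cannot lose a call. The calls of MIR155HG against vector and of MIR17HG with R58Q against vector held in all 19. MIR22HG with R58Q lost its call in 5, and the calls of R58Q against S136X were lost in 5 (MIR155HG) and 7 (MIR17HG), among them the threshold of 0.01 and the setting without replicate 1 in both groups (adjusted p = 0.064 and 0.074, edgeR).

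Genes called in S136X against vector numbered 601, and 934 with no filter, 1014 with the replicate block, 1574 by adjusted p alone, 262 at 0.01, and 279 (without vector replicate 2) to 705 with 1 library left out, with 349 without S136X replicate 3. In R58Q against vector there were 1178, and 3243 by adjusted p alone, 596 at 0.01, and 719 (without vector replicate 2) to 1248 with 1 left out, with 778 without R58Q replicate 3. In R58Q against S136X there were 66, and 146 with DESeq2, 165 with no filter, 114 with all 9 libraries, 446 with the replicate block, 15 at 0.01, 30 without replicate 1 in both groups, and 5 (without S136X replicate 3) to 63 with 1 left out (40 and 17 without R58Q replicate 1 and 3, 28 and 17 without S136X replicate 1 and 2). The members called there were 2, and 0 at 0.01, 0 without replicate 1 in both groups and 0 to 2 with 1 library left out, and in R58Q against vector 2 to 3. The block, which treats same-numbered libraries as pairs, changed no member call. The cause was not tested for any of these.

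The direction turned for some uncalled members, on the log2 scale: NEAT1 in S136X against vector was 0.002 without S136X replicate 2 (lowest -0.28 with 1 library left out, without vector replicate 1). NEAT1 in R58Q against vector was -0.02 with upper-quartile factors, -0.01 with total counts, -0.0016 without R58Q replicate 1, -0.08 without vector replicate 1 (highest 0.16, without R58Q replicate 2) and -0.14 without replicate 1 in both groups. MALAT1 there was 0.08 without vector replicate 2 (lowest -0.28, without vector replicate 1). MIR3142HG in R58Q against S136X was -0.07 without R58Q replicate 3 and -0.12 without S136X replicate 2 (highest 0.35, without S136X replicate 3). Total counts alone shifted the split of higher and lower genes from 319 and 282 to 257 and 368 in S136X and from 632 and 546 to 549 and 741 in R58Q against vector; upper-quartile factors gave 542 and 772 in the latter. At 64 to 151 counts, MIR22HG is the tested member that depth limits most.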
